A study of Mus musculus with 8 samples.

Results

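Interferon-stimulated genes are the transcripts that cells switch on when an interferon binds its receptor, and 33 of them were followed here across 8 microarrays of mouse whole skin. They were taken from a written list of gene symbols, which was chosen with earlier results of these data known. Of the 33, 31 had at least 1 probe on the array and 39 probes between them, against 20284 genes and 26762 probes that could be named in all. Mx1 and Mx2, which encode antiviral GTPases, were not matched to a probe and were not analysed here. The remaining 31 were well above background on all 8 arrays, so all 31 were tested, among 17722 genes tested in total.

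The study compared 4 skins labelled Control with 4 labelled DTG, an abbreviation the labels leave unexplained, under a title that names Musashi1 overexpression. Musashi1, encoded by Msi1, is an RNA-binding protein that regulates translation of its target transcripts. Skin was frozen, total RNA was extracted with TRIzol, and the amplified, Cy3-labelled cDNA was hybridised to 1-colour Agilent arrays. All 8 skins are labelled male, and strain, age, the alleles carried and the promoter that drives Msi1 are not given in the labels. The arrays are numbered 1 to 4 within each group, as names only.

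Type I interferons act through a receptor whose kinases phosphorylate STAT2, which joins IRF9 in a complex that binds interferon-stimulated response elements (ISREs). Type II interferon, interferon-gamma, acts mainly through gamma-activated sites (GAS), and the resulting gene sets overlap. In skin, keratinocytes, fibroblasts, macrophages and other leukocytes can all respond, and a low resting level of these genes is usual.

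The ISRE is the sequence these members are best known to share, so promoter windows of 250 bases before to 50 after each RefSeq start (build GRCm38.p6) were searched for it. Of the 33 members, 26 had a window. The letters GAAANNGAAA, read on either strand, were found in 15 of the 26, against 3.99% of the 27025 genes with a window and 3.44% of all 32851 windows. The palindromic GAS-like letters TTCNNNGAA were found in 6 of 26 members, against 9.55% of genes and 8.30% of windows. The 2 motifs can overlap in sequence, and a match describes letters only. The stretches below are shown for 6 members whose levels are described next, each 5′ to 3′ on the gene's strand, with ISRE-like matches (adjoining ones run together) in capitals.
Ifit1, chr19:34640760-34640838 (+): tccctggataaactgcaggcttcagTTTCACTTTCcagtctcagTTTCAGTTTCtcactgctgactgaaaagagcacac
Ifit3, chr19:34583355-34583434 (+): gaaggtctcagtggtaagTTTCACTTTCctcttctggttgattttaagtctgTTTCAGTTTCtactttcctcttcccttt
Isg15, chr4:156200846-156200925 (-): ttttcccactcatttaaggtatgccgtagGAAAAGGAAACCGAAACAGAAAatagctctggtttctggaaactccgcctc
Bst2, chr8:71537555-71537634 (-): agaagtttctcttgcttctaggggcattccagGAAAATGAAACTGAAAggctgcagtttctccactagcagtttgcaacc
Stat2, chr10:128270248-128270320 (+): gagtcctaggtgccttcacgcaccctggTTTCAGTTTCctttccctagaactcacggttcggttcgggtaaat
Gbp2, chr3:142620569-142620648 (+): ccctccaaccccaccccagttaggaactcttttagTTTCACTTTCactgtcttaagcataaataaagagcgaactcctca
Isg15 holds 3 overlapping matches, Ifit1 and Ifit3 hold 2 separate ones each, Bst2 holds 2 overlapping ones, and Stat2 and Gbp2 hold 1 each.

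Levels are given as the log2 signal, which is the log2 brightness of the gene's probe minus the 75th percentile of that array, so they compare arrays for a gene and not genes with each other. Spots well above background made up 79.5% to 85.1% of each Control array and 68.8% to 71.6% of each DTG array. Control arrays lay in row 1 of the slide and DTG arrays in row 2, so the position on the slide and the group cannot be told apart. All 10 keratinocyte markers passed the filter on signal, with summed linear levels of 135 to 181 in Control and 113 to 137 in DTG. As a check of the labels, the brighter Msi1 probe read -2.45, -6.14, -1.68 and -1.73 on Control 1 to 4 and 3.84, 3.67 and 3.98 on DTG 2 to 4, the DTG 1 spot being left out as an outlier (log2 fold change 6.83, SE 1.03, limma adjusted p = 0.0031). A second Msi1 probe read between -3.58 and -2.99 on all 8 arrays. Xist, expressed from an inactive X chromosome, and the Y-linked Eif2s3y did not follow the male label. On Control 1, Control 3 and DTG 2 Xist read -8.74, -7.09 and -7.57 and Eif2s3y read 1.48, 1.42 and 1.06. On the other 5 arrays Xist lay between -0.12 and 0.51 and Eif2s3y between -7.98 and -6.36.

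No interferon-stimulated gene was called between DTG and Control by the test used, and 1 Control skin, Control 2, held the highest level of nearly every one. In limma's fit with Benjamini-Hochberg adjustment over all tested genes, 0 of 31 members were called at an adjusted p under 0.05, where 31.9% of all tested genes were called (11.5% higher and 20.4% lower in DTG). One member, Ifih1, had an unadjusted p under 0.05, against 7784 of 17722 genes. The groups overlapped for every member, while they did not overlap for 34.2% of all tested genes. The members' log2 fold changes (DTG minus Control) ran from -0.73 to 1.46 with a median of -0.16, beside a median of -0.13 over all tested genes. With arrays scaled on spike-in spots both medians turned positive, to 0.29 and 0.32, and 2 members, Ifitm3 and Irf9, were called higher in DTG. Control 2 was the highest array for 22 of 31 members on that scale.

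That count of 0 does not show that the groups were alike. The standard error of a member's log2 fold change had a median of 0.30 and ranged from 0.12 to 1.06, where the median over all tested genes was 0.14. The 95% interval lay wholly within 1 log2 unit of 0 for 20 of 31 members and within 0.5 for 3. The spread within Control was the wider one: the median SD of a member was 0.61 among Control arrays and 0.32 among DTG arrays, beside 0.19 and 0.17 over all tested genes. The Control SD was the larger for 30 of 31 members and for 55.9% of all tested genes. Without Control 2 the median Control SD of the members was 0.26.

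Control 2 was the array that stood apart. It held the highest of the 8 levels for 30 of 31 members, where it held the highest level for 16.2% of all tested genes, and it lay above every DTG array for 31 of 31. The exception was Tap1, which was highest on Control 4. Counts that set Control 2 against DTG arrays depend on the scaling. On spike-in spots Control 2 was the highest of the 8 for 22 of 31 members. The distance of an array from the mean of the other 3 arrays of its group, here called its gap, had a median of 1.12 log2 units on Control 2 over the members, or 2.18-fold, beside -0.05 over all tested genes. That gap was over 1 for 19 of 31 members and for 1.86% of all genes. It lay above the 95th percentile of all genes, 0.63, for 24 of 31 members.

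**Figure D1:**
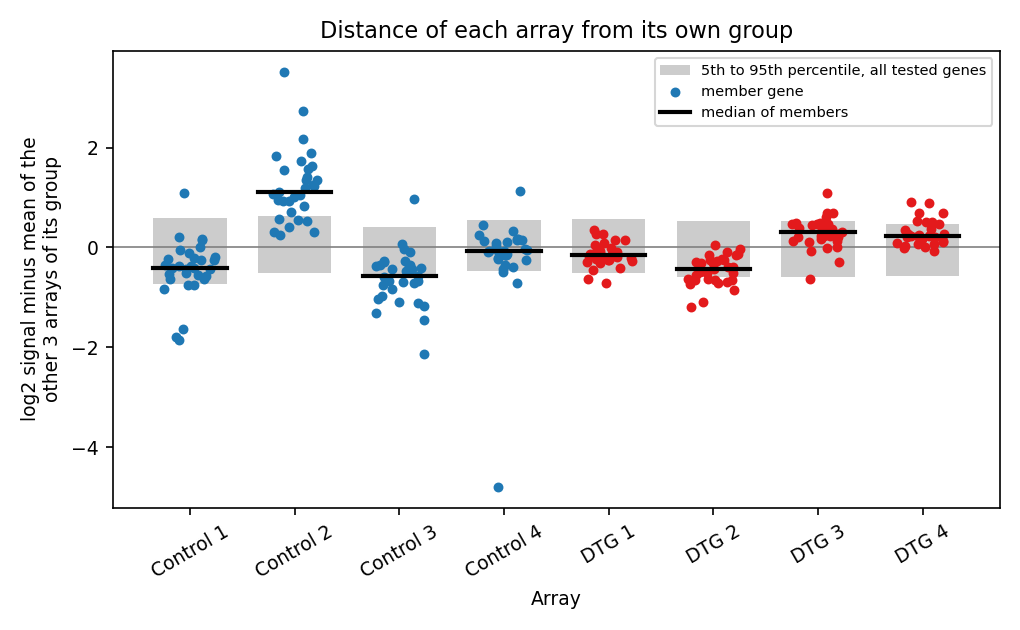
Gap of each array, the log2 signal minus the mean of the other 3 arrays of its group (vertical axis, log2 units), for each of the 31 members (points, Control in blue and DTG in red) on each of the 8 arrays (horizontal axis). Bars mark the median of the members and grey boxes the 5th to 95th percentile of all tested genes. The Control 2 points all lie above 0, with a median of 1.12, and the lowest single point is Xaf1 on Control 4 at -4.79.

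The other arrays differed less. The median member gap was -0.40 on Control 1, -0.56 on Control 3 and -0.06 on Control 4. Each of these was taken against a mean that includes Control 2, so the height of Control 2 lowers them. Among DTG arrays it was -0.15 on DTG 1, -0.43 on DTG 2, 0.30 on DTG 3 and 0.23 on DTG 4. Over all tested genes these medians stayed between -0.05 and 0.07. DTG 2 was the lowest DTG array for 23 of 31 members and Control 3 the lowest Control array for 21.

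**Figure D2:**
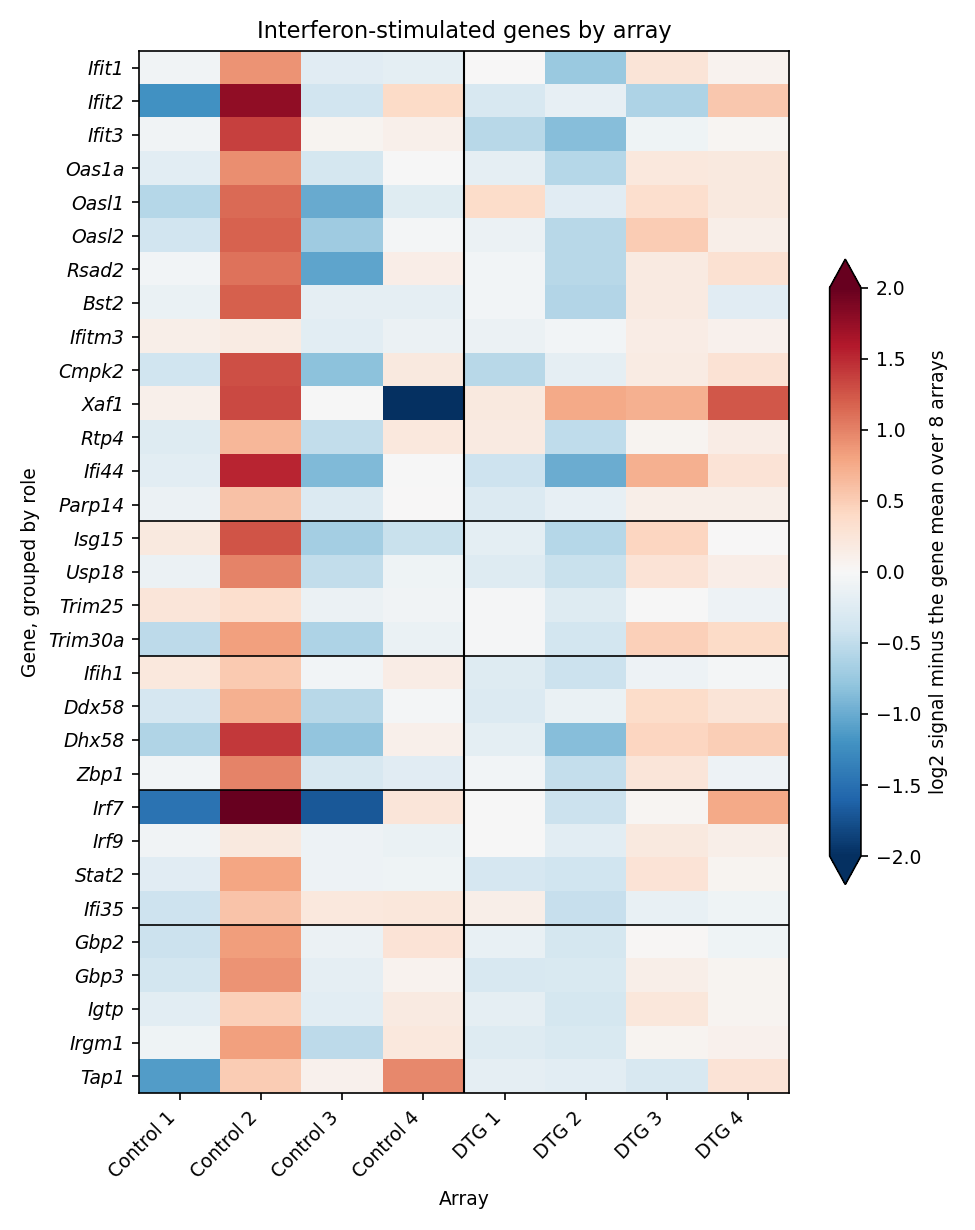
Log2 signal of each of the 31 members (one line each, grouped by role) on each of the 8 arrays (columns), minus that gene's mean over the 8 arrays. Colours run from blue (below the gene's mean) to red (above it), and values past 2 log2 units take the end colour. Control 2 is the reddest column, with Irf7 and Ifit2 the darkest red cells, and DTG 2 and Control 3 are mostly blue.

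Antiviral effectors, the proteins that block steps of viral replication, were the largest group with 14 members tested. Control 2 was the highest array for all 14, with a median gap of 1.39. Between groups 0 of 14 were called, beside 31.9% of all tested genes. Ifit1, Ifit2 and Ifit3 encode tetratricopeptide-repeat proteins that bind foreign RNA or each other and sit side by side on chromosome 19. Ifit1 read 0.64, 1.61, 0.48 and 0.51 on Control 1 to 4 and 0.72, -0.03, 0.96 and 0.77 on DTG 1 to 4. Its other 3 Control arrays lay together inside the range of the DTG arrays, with Control 2 alone above them. Ifit3 read 1.27, 2.71, 1.39 and 1.43 on the Control arrays and 0.79, 0.49, 1.25 and 1.38 on the DTG arrays. Again Control 2 stood alone, and the remaining Control arrays lay close to DTG 3 and DTG 4. Ifit3 had the lowest fold change of the members, -0.73 (SE 0.34, limma adjusted p = 0.134), which was -0.39 without Control 2. Ifit2 read -3.90, -0.92, -3.08 and -2.31 in Control and -3.01, -2.87, -3.31 and -2.16 in DTG. Here Control 2 was 4.51-fold above the mean of the other Control arrays, and Control 1 was the lowest of all 8.

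The oligoadenylate synthetase family, whose members make or relate to the signal that activates RNase L, had the same high array. Oas1a read 1.54, 2.69, 1.41 and 1.75 in Control and 1.58, 1.19, 1.97 and 1.95 in DTG. Oasl2 read 0.75, 2.30, 0.42 and 1.09 in Control and 1.01, 0.57, 1.63 and 1.25 in DTG. In both, Control 2 was highest, and either Control 3 or DTG 2 was lowest. Oasl1, a catalytically inactive relative that restrains translation of Irf7, read -0.16, 1.54, -0.61 and 0.16 in Control and 0.77, 0.18, 0.74 and 0.59 in DTG. All 4 DTG arrays lay above the other 3 Control arrays and below Control 2. Its fold change was 0.34 (SE 0.41, limma adjusted p = 0.553) over all arrays and 0.77 (SE 0.22, limma adjusted p = 0.037) without Control 2.

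Leaving out Control 2 thus made Oasl1 the 1 member called, higher in DTG, where 26.0% of all tested genes were called in either direction and 9.38% higher. No member was called lower. The median fold change of the members went from -0.16 to 0.11, while that of all tested genes went from -0.13 to -0.14. The number of members with a positive fold change went from 7 to 24 of 31, and 17 members changed sign from negative to positive. None of those 17 was called in either fit, so these signs are descriptions.

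**Figure D3:**
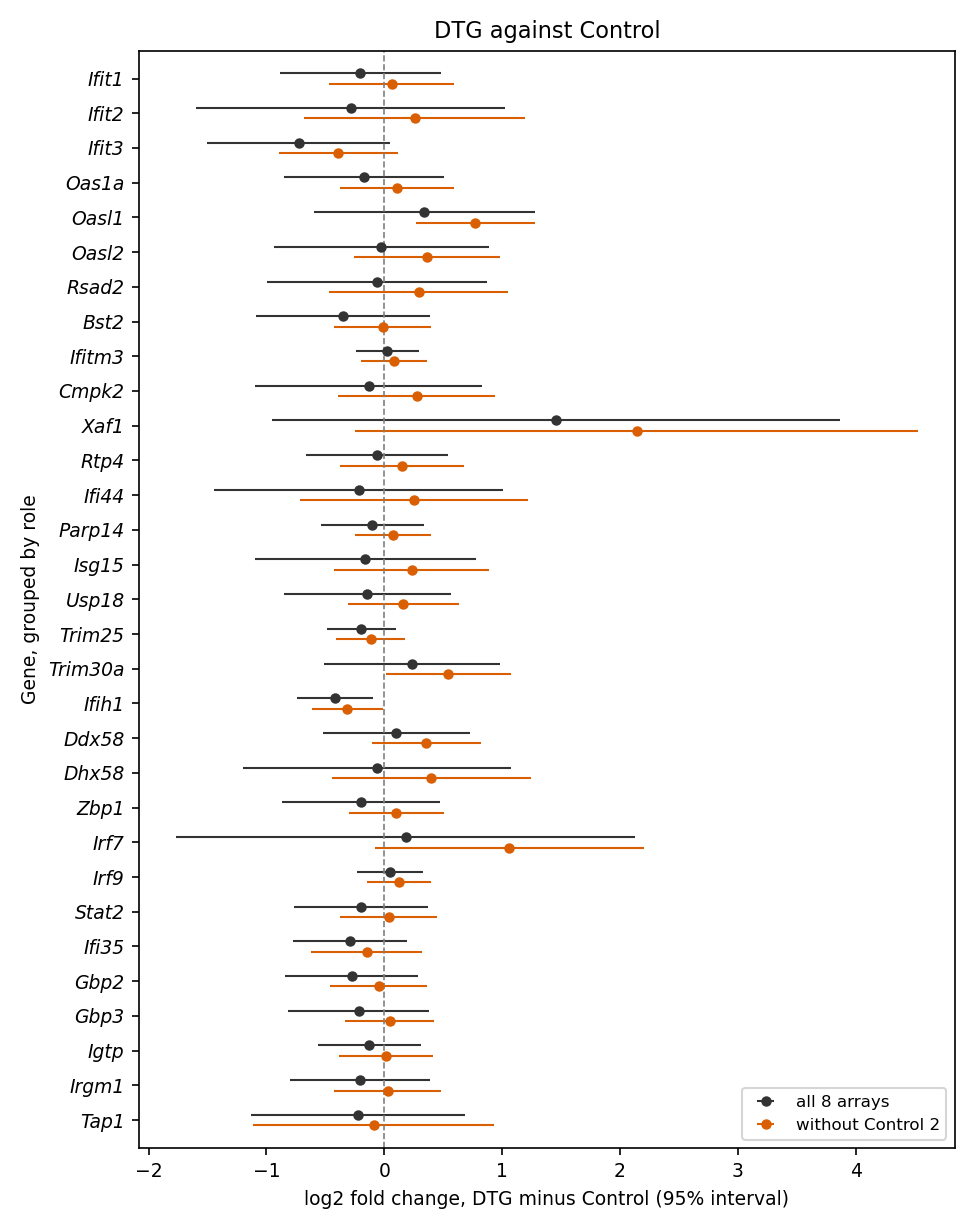
Log2 fold change of each member, DTG minus Control (horizontal axis), with its 95% interval as a line, for all 8 arrays (dark) and without Control 2 (orange). On this scale (75th percentile) most dark points lie left of 0 and most orange points right of it, and the orange interval of Oasl1, 0.27 to 1.28, is clear of 0.

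Rsad2 encodes viperin, which makes a chain-terminating nucleotide, and Cmpk2, its neighbour in the genome, encodes a nucleotide kinase that supplies it. Rsad2 read 0.57, 1.72, -0.43 and 0.76 in Control and 0.57, 0.06, 0.80 and 0.93 in DTG. Cmpk2 read -1.27, 0.41, -1.69 and -0.67 in Control and -1.42, -1.05, -0.70 and -0.58 in DTG. For both neighbours Control 2 was highest and Control 3 lowest of the 8, and the DTG arrays lay between. Bst2, or tetherin, which holds budding virus at the cell surface, read 2.16, 3.48, 2.11 and 2.10 in Control and 2.22, 1.69, 2.46 and 2.06 in DTG. Without Control 2, its Control arrays spanned 2.10 to 2.16 and sat inside the DTG range. Its fold change of -0.35 (SE 0.32, limma adjusted p = 0.425) became -0.01 without Control 2 (95% interval -0.42 to 0.39).

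Ifi44, an interferon-induced cytoplasmic protein, read 0.93, 2.67, 0.26 and 1.14 in Control and 0.72, 0.15, 1.85 and 1.42 in DTG. The gap of Control 2 was 1.89, while Control 3 and DTG 2 were again the low arrays of their groups. Smaller gaps of Control 2 were seen for Rtp4, a transmembrane protein with antiviral activity, at 0.84, and for Parp14, an ADP-ribosyltransferase, at 0.71. Ifitm3, which keeps virus from fusing with endosomal membranes, read 3.31, 3.37, 2.98 and 3.08 in Control and 3.07, 3.14, 3.34 and 3.28 in DTG. These 8 values lay within a narrow range, and its gap of 0.24 on Control 2 was the smallest of the members. The 95% interval of the Ifitm3 fold change was -0.24 to 0.29.

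Xaf1, which binds and opposes an inhibitor of apoptosis, was 1 of 4 members whose probes gave fold changes of opposite sign. The probe used read 0.59, 1.81, 0.48 and -3.83 in Control and 0.69, 1.25, 1.21 and 1.74 in DTG. The value on Control 4 lay far below the other 7 and set the highest fold change among the members, 1.46 (SE 1.06, limma adjusted p = 0.315). A second Xaf1 probe read 0.91 on Control 4, inside the range of its other values, with 1.59 on Control 2 and a fold change of -0.62. Over the 8 members with a second probe that was tested, the gap of Control 2 on that probe ran from 0.42 to 1.75, and 0 were called. The other 3 members whose probes differed in sign were Oas1a, Ddx58 and Irgm1.

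The ubiquitin-like modifier Isg15 and the enzymes around it gave 4 members, with a median gap of 1.23 on Control 2. Of the 4, 0 were called, beside 31.9% of all tested genes. Isg15 itself, which is attached to proteins and also secreted, read 1.60, 2.66, 0.71 and 0.95 in Control and 1.21, 0.83, 1.83 and 1.40 in DTG. Control 2 was highest and Control 3 lowest, so the DTG arrays fell between them. Usp18, the protease that removes ISG15 and also damps the type I receptor, read -0.36, 0.75, -0.73 and -0.33 in Control and -0.50, -0.69, 0.04 and -0.10 in DTG. As for Isg15, Control 3 was the lowest array and Control 2 alone lay above DTG 3. Trim25, a ubiquitin ligase for RIG-I, read 2.47, 2.55, 2.10 and 2.14 in Control and 2.19, 1.95, 2.21 and 2.12 in DTG. Its Control 2 value was little above that of Control 1, and the gap was 0.32. Trim30a, a tripartite-motif protein that restrains NF-kappaB signalling, read -1.21, 0.13, -1.29 and -0.82 in Control and -0.71, -1.04, -0.20 and -0.30 in DTG. Its fold change went from 0.23 to 0.54 without Control 2 (SE 0.23, limma adjusted p = 0.113), with DTG 2 the only DTG array below Control 4.

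The nucleic acid sensors gave 4 members. Ifih1, which encodes the long double-stranded RNA sensor MDA5, was the member nearest to a call between groups. It read 1.36, 1.67, 1.10 and 1.30 in Control and 0.89, 0.71, 1.04 and 1.11 in DTG. Only DTG 4 and Control 3 crossed, and they differed by little. The fold change was -0.42 (SE 0.14, 95% interval -0.74 to -0.09, unadjusted p = 0.0179, limma adjusted p = 0.054), and without Control 2 it was -0.31 (limma adjusted p = 0.108). Ifih1 was called lower in 3 alternative fits: among genes well above background on all 8 arrays, without Control 3, and with Xist class as a covariate. Over all the alternatives its fold change ran from -0.50 to 0.037, and its limma adjusted p from 0.020 to 0.883. A second, dimmer Ifih1 probe gave a fold change of -0.25 (SE 0.26) and was not called. Ddx58, which encodes the 5′-triphosphate RNA sensor RIG-I, read 0.35, 1.39, 0.13 and 0.64 in Control and 0.40, 0.54, 1.04 and 0.94 in DTG. Its fold change was 0.10 (SE 0.27) on that probe and -0.42 (SE 0.37) on a second one, neither of them called. Dhx58, or LGP2, their regulator without signalling domains, read -0.80, 1.21, -0.99 and -0.10 in Control and -0.39, -1.05, 0.23 and 0.28 in DTG. Its gap of 1.84 on Control 2 was the largest of the sensors, and Control 1, Control 3 and DTG 2 were its low arrays. Zbp1, a Z-form nucleic acid sensor that can trigger cell death, read 1.16, 2.20, 0.89 and 0.98 in Control and 1.15, 0.73, 1.46 and 1.11 in DTG, with Control 2 again alone at the top.

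Among the transcription factors and partners, Irf7, the master regulator of interferon-alpha genes, differed most between skins. It read -4.08, -0.05, -4.29 and -2.35 in Control and -2.61, -3.02, -2.57 and -1.85 in DTG. Control 2 was 11.5-fold above the mean of the other Control arrays, the largest gap of any member, while Control 1 and Control 3 were the lowest arrays and the DTG arrays lay between. The fold change between groups was 0.18 with a 95% interval of -1.77 to 2.13, so a difference of several fold in either direction is within its error. Stat2, which carries the transactivation domain of the ISRE-binding complex, read 0.92, 1.94, 1.04 and 1.06 in Control and 0.81, 0.75, 1.42 and 1.20 in DTG. Control 2 stood alone above both groups. Irf9, the DNA-binding subunit of that complex, read 1.58, 1.85, 1.55 and 1.51 in Control and 1.64, 1.44, 1.85 and 1.77 in DTG. Its Control 2 value was level with DTG 3, its gap was 0.30, and its fold change of 0.05 had a 95% interval of -0.23 to 0.33. Ifi35, a leucine-zipper protein, read 1.37, 2.35, 1.99 and 2.01 in Control and 1.90, 1.32, 1.64 and 1.70 in DTG, with Control 1 and DTG 2 its low arrays.

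The last 5 members respond strongly to interferon-gamma, and 0 of 5 were called, beside 31.9% of all tested genes. Gbp2, a guanylate-binding protein that coats intracellular pathogens, read 0.47, 1.72, 0.77 and 1.16 in Control and 0.75, 0.54, 0.92 and 0.81 in DTG. Gbp3, of the same family, read 0.14, 1.40, 0.32 and 0.57 in Control and 0.19, 0.20, 0.62 and 0.56 in DTG. In both, the order among Control arrays was Control 2 highest, Control 4 next and Control 1 lowest. The immunity-related GTPase Igtp read 0.47, 1.16, 0.46 and 0.86 in Control and 0.49, 0.33, 0.91 and 0.72 in DTG. Irgm1, a regulator of that family, read 0.23, 1.13, -0.21 and 0.54 in Control and 0.07, 0.02, 0.37 and 0.41 in DTG. For these, too, Control 2 was the highest array, with gaps of 0.56 and 0.95. Tap1, a subunit of the peptide transporter that loads MHC class I, read -3.24, -1.61, -2.04 and -1.16 in Control and -2.30, -2.33, -2.45 and -1.85 in DTG. Its Control values spread over more than 2 log2 units, from Control 1 at the bottom to Control 4 at the top.

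Members with and without an ISRE-like match overlapped in their gap on Control 2, and the largest gaps were those of members without one. The median gap was 1.05 over the 15 members with a match (0.24 to 1.57) and 1.62 over the 11 with a window and no match (0.30 to 3.52). On the probes used, Irf7, Xaf1, Ifit2, Ifi44, Oasl1 and Cmpk2, all without a match, lay above every member with one. That order did not hold on second probes. There the gap was 1.11 for Xaf1 and 1.72 for Cmpk2, both without a match. It was 1.75 for Isg15, 1.69 for Oas1a, 1.08 for Ddx58, 1.03 for Irgm1 and 0.42 for Ifih1, all with a match. The difference between members with and without a match was not tested, and no match says only that these letters are not in the window read.

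The low ends of the range followed Xist class. Control 1, Control 3 and DTG 2, the arrays with low Xist and high Eif2s3y, held the lowest level of 29 of 31 members (93.5%), where they held the lowest level of 36.8% of all tested genes. The exceptions were Xaf1, lowest on Control 4, and Parp14, lowest on DTG 1. Control 4, which shared its Xist class with Control 2, had a median member gap of -0.06, against a mean that includes Control 2. Relative to each gene's mean over all arrays, the median member level was -0.0009 on Control 4. It was -0.21 on Control 1, -0.32 on Control 3 and 0.90 on Control 2. With Xist class as a covariate the members' median fold change was -0.32, and 2 were called lower in DTG. These were Ifih1 at -0.49 (limma adjusted p = 0.020) and Ifit3 at -0.90 (limma adjusted p = 0.040). In that fit 3703 of 17722 genes were called lower. The part of Xist class in these levels was not tested beyond that fit.

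Macrophage markers were high on Control 2 and low on the arrays of low Xist, as the members were, but not alike on every array. Of 10 markers 9 were tested, 6 of them were highest on Control 2, and their median gap there was 1.01. The summed linear level of the list, relative to each array's 75th percentile, ran from 31 to 67.9 in Control, with 67.9 on Control 2, and from 36.9 to 60.7 in DTG. All 9 were lowest on an array of low Xist. The lists parted on Control 4, where the median gap was 0.28 for macrophage markers and -0.06 for members, and on DTG 3, where it was 0.02 and 0.30. Cd68 was not matched to a probe, and Fcgr1 is itself an interferon-inducible gene. The 10 other marker lists had median gaps from -0.29 (keratinocyte) to 0.19 (adipocyte). Among lists named for leukocytes it was -0.02 for 8 plasmacytoid dendritic cell, 0.03 for 13 T and NK cell and -0.14 for 9 neutrophil markers. Control 2 was still the highest array for 2 of the 8, 2 of the 13 and 0 of the 9. A list median thus does not describe each gene, and other cells of whole skin can express genes of these lists. Between groups, 1 of the 9 macrophage markers was called higher and 0 lower, beside 11.5% and 20.4% of all tested genes. Of the 13 T and NK cell markers 1 was called higher and 5 lower, with summed levels of 11.3 to 12.2 in Control and 7.33 to 9.16 in DTG. The part of these cell types in the members' levels was not tested, and in whole skin fewer cells of a type and less RNA per cell cannot be told apart.

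Of 31 other type I interferon-induced genes tested, 25 were highest on Control 2 with a median gap of 0.69, led by Oas3 at 3.0, Ifit1bl1 at 2.38 and Oas1g at 2.31 (these 3 were picked after their values were seen). Only 3 of the 31 were called between groups, 1 higher and 2 lower, beside the background of 11.5% and 20.4%. Several belong to families of close copies (Ifit, Oas, Gbp), so a probe may read more than 1 copy. Ifitm2, a neighbour and relative of Ifitm3, rose by 0.55 on the log2 scale (SE 0.12), while Parp10 and Oas1c were lower at -0.44 and -0.42. Parp10 and Oas1c were no longer lower when arrays were scaled on the spike-in spots (0.013 and 0.035).

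**Figure D4:**
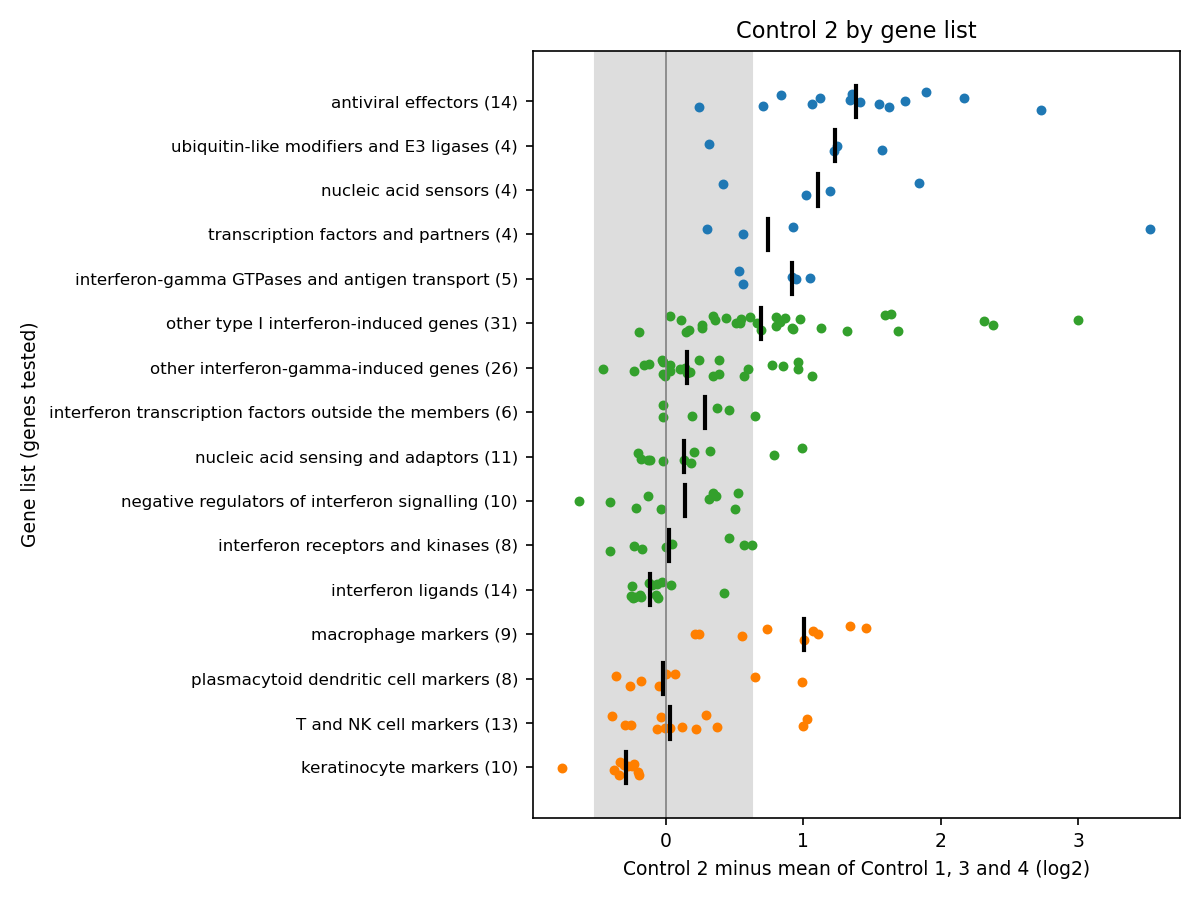
Gap of Control 2, its log2 signal minus the mean of Control 1, 3 and 4 (horizontal axis), for each tested gene (points) of the 5 member groups (blue), 7 other pathway lists (green) and 4 marker lists (orange). Black bars are list medians and the grey band is the 5th to 95th percentile of all tested genes. Member groups and macrophage markers have medians beyond 0.63, as do other type I interferon-induced genes at 0.69, while ligands, receptors and keratinocyte markers have medians inside the band.

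Of 26 other interferon-gamma-induced genes tested, 12 were highest on Control 2 with a median gap of 0.15. In DTG, 2 were called higher and 5 lower, shares near those over all tested genes (11.5% and 20.4%), and the difference from the 5 members was not tested. Cd274, which encodes the checkpoint ligand PD-L1, rose by 0.66 (SE 0.09), from -0.67 to -0.48 on the Control arrays to -0.02 to 0.23 on the DTG arrays. Ido1, the tryptophan-degrading enzyme, rose by 1.22 (SE 0.22), from -6.31 to -5.57 up to -5.12 to -4.38. These values are near the floor. The lowest signal well above background was -7.44 to -6.71 on the Control arrays and -5.70 to -5.41 on the DTG arrays. The part of that difference in the Ido1 rise was not tested. Psmb8, an immunoproteasome subunit, fell by 0.61 (SE 0.10), from 2.38 to 2.58 in Control down to 1.67 to 2.03 in DTG. The GTPase gene Tgtp1 was called lower at -0.61, with 1 of 4 DTG arrays well above background. The other called genes, named after their values were seen, were the immunoproteasome subunits Psmb9 at -0.61 and Psmb10 at -0.42 and the transporter subunit Tap2 at -0.41. Psmb9 shares a promoter with the member Tap1, whose 95% interval was -1.13 to 0.68.

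Upstream of the members, 5 of 14 ligand genes tested were called lower in DTG and 0 higher, where 20.4% and 11.5% of all tested genes were. That count includes Ifna11 and Ifna7, which passed the filter on signal only through the Control arrays, where they were higher. The filter favoured a lower call for both, so the count is not a result about the list. The Ifna genes are close copies of one another, so a value may not belong to 1 copy alone. Ifnk, the interferon-kappa made by keratinocytes, was lower by a log2 fold change of -0.58 (SE 0.17), with -3.79 to -3.17 in Control and -4.30 to -3.82 in DTG. Ifna11 was well above background on 4 Control arrays and 0 DTG arrays and was at least 1.06-fold lower. Ifna7 was likewise not well above background on any DTG array. With its DTG values raised to the lowest such signal of each array, its DTG mean was no longer the lower one. No fold is therefore given, and a fall of Ifna7 is not shown. Ifna5 was lower by -0.33, which became 0.12 on spike-in scaling. The fifth, Ifna2 at -0.59, was named after its values were seen. Ligand genes did not follow the members on Control 2, where their median gap was -0.11 and 1 of 14 was highest.

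Receptors and their kinases had 0 of 8 called, beside 31.9% of all tested genes, and a median gap of 0.02 on Control 2. Of 6 transcription factors outside the members, 1 was called, also beside 31.9%. This was Irf3, the factor that RIG-I and MDA5 signalling activates, which fell by 0.63 on the log2 scale (SE 0.10). Its values were 2.0 to 2.20 in Control and 1.36 to 1.64 in DTG. Of 11 genes of nucleic acid sensing and its adaptors 1 was called higher and 2 lower, again near the shares over all tested genes, so these are values of single genes. Myd88, the Toll-like receptor adaptor, rose by 0.76 (SE 0.12), Ikbke, a kinase of IRF3, fell by 0.89 (SE 0.18), and Cgas, the cytosolic DNA sensor, fell by 0.55 (SE 0.13). Of 10 genes listed as negative regulators 1 was called higher and 1 lower, beside 11.5% and 20.4% of all tested genes. Ptpn2, a phosphatase that damps cytokine signalling, rose by 0.48 (SE 0.11). Isg20, an interferon-stimulated exonuclease kept in that list, fell by 0.54 (SE 0.17), which is not the fall of a negative regulator. On spike-in scaling Irf3, Ikbke, Cgas, Isg20, Psmb8, Tgtp1 and Ifnk were no longer called. Psmb9, Psmb10, Tap2 and Ifna2 were not followed under the alternatives, so their calls were not checked on that scale.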

How the data were processed

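Total RNA of 8 whole mouse skins was measured on 8 arrays of 1 slide. Spot brightness was deposited as an intensity on a linear scale, background-corrected by Agilent Feature Extraction (11.5.1.1 per the file headers; the submitters' processing notes give 10.7). The headers name build mm9. The authors' deposited values for the whole series (43861 probes) equals the same intensity, 99.6% of values lying within a relative tolerance of 0.001, so it is linear, with neither centring nor scaling; its column medians ran from 851 to 1140, and it served as an alternative.

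Groups follow the tissue label. Accessions were matched without versions to RefSeq (GRCm38.p6) for names, which named 48.1% of 55681 probes. Outlier spots were left out (0.74% of values), log2 of the deposited intensity was taken, each array's 75th percentile was subtracted, and spots of a probe were averaged. Probes well above background on at least 3 of 4 arrays of 1 group were kept, and the brightest stood for its gene. Groups were compared with limma 3.58.1 in R 4.3.3 (with data.table, version 1.17.8), two-sided, with Benjamini-Hochberg adjustment over 17722 genes. The code was tested on simulated data, and figures were drawn with matplotlib 3.10.9 in Python 3.11.15. A gene not well above background on any array of a group is given a bound: in the dimmer group each array's value is raised to the lowest well-above-background signal of that array before means are compared.

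The members, the other lists and the rules were chosen with earlier results of these data known. Named genes were all members, Msi1, and up to 4 called genes of smallest p per pathway list; marker lists are given as counts and summed levels. The labels do not say that the skins came from separate animals, so p-values measure the spread between these 8 samples only, and part of it may be technical. The number of arrays limits the precision.

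Alternatives were other scalings, normexp with offset 50 (on the median signal, as no mean signal column was used), the value table, other filters, mean of probes, kept outliers, Xist class, slide column and leaving out each array.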

Additional observations from a re-analysis of the deposited data

Results flagged for a closer look

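Of 62 sets of 4 arrays (31 members in each group), 4 held an array set far from the other 3 relative to the whole range. Chance flags about 1 in 20 such sets, so a count of 4 is close to that rate. In each the array was Control 2 and lay above the others: Ifit1 at 1.61, Ifit3 at 2.71, Bst2 at 3.48 and Stat2 at 1.94 (log2 signal). The members share those arrays, so the 4 are not independent of each other. No DTG array was marked in this way.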

How the results depend on the processing

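The labels give no replicate numbers that groups share, so no fit but the one on slide column pairs skins. With arrays scaled on spike-in spots 2 members were called higher in DTG (Ifitm3 and Irf9), the members' median log2 fold change was 0.29 beside 0.32 over all genes, and Ifna5, Oas1c and Parp10 changed sign (0.12, 0.035 and 0.013). On that scale 5981 genes were called higher and 485 lower, against 2032 and 3613, and Control 2 was highest for 22 of 31 members. Without scaling, 1592 genes were called lower and the median gap of Control 2 was 1.42. With no filter on dim probes 3224 genes were called higher. The share of calls that were lower was 64.0%, against 41.6% without scaling, 7.50% on spike-in spots and 53.2% without the filter. Members called lower numbered 1 (Ifih1) among genes well above background on all 8 arrays and 2 (Ifih1 and Ifit3) with Xist class as a covariate. Leaving out 1 array at a time gave 0 to 1 members called higher (Oasl1, without Control 2), 0 to 1 called lower (Ifih1, without Control 3), a median of -0.31 to 0.11, 1537 to 2026 genes called higher and 2439 to 3169 lower. Slide column as a block, which sets each Control array beside the DTG array of the same number, left 0 members called. Of 620 single-member results under 20 alternatives, 613 kept their side of the threshold and 7 became calls, while 71 uncalled ones had another sign, 23 of them on spike-in spots and 17 without Control 2. Of 336 results of other named genes, 282 kept their call, 51 lost it and 3 changed sign. The alternatives for Control 2 were chosen after seeing the data, and apart from no scaling its median gap stayed at 1.12 to 1.22.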
